A study of Mus musculus with 6 samples.

Results

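The genes described are the insulin-like growth factor Igf1, its receptor Igf1r and 6 genes of the IGF binding protein family, Igfbp2 to Igfbp7. They were chosen by symbol with earlier results of these data known, so counts of them beside all genes are descriptions. All 8 were found in each of the 6 count tables, which together list 42625 genes. RNA of single cells was sequenced after droplet capture, which gives each cell a barcode and each captured RNA molecule a unique molecular identifier (UMI). The mice that gave GFP+ cells were males of 10 to 14 weeks carrying the Pdgfra-GFP reporter B6.129S4-Pdgfratm11(EGFP)Sor/J. This places a GFP under the control of the Pdgfra gene and was present in treated and control animals alike. Single-dose mice received 50 µl of PBS or of bleomycin once into the airways, and GFP+ lung cells were sorted on day 14. For this dose of bleomycin the labels hold 2 values, 2 U/kg where they describe the protocol and 4 U/kg where they list the treatment. Repetitive mice received 3 doses a week apart, either of PBS or of bleomycin, of which the first and the second were 1 U/kg and the last 0.5 U/kg, and were taken 2 weeks later. Organoids mixed type 2 alveolar epithelial cells (AEC2s) and GFP+ fibroblasts (FBs). The labels give an excess of AEC2s in this mixture and the study's methods an excess of FBs, so its ratio is not settled here. The AEC2s came from separate mice without bleomycin, in which a tamoxifen-inducible SpcCreER switches on a tdTomato reporter. The FBs came from mice given PBS (normal) or 2 U/kg bleomycin (fibrogenic) and taken on day 14, and the mixture was grown in matrigel for 2 weeks. Each library pooled cells of 3 mice, and each condition had 1 library. No difference between conditions therefore has a replicate check and none was tested, and the spread between mice is unknown.

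Igf1 is a secreted growth factor that acts through the receptor tyrosine kinase Igf1r and, downstream of it, the kinases PI3K and AKT. Most IGF in tissue is held by binding proteins, which carry it, keep it from the receptor or release it after cleavage by proteases such as PAPP-A. In the lung, FBs and other mesenchymal cells are known sources of IGF1 and of several binding proteins, and IGF1 has long been studied in fibrosis.

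The libraries held 7201081 to 238618743 UMIs in 1015 to 10737 barcodes, and any pair of libraries shared 0 to 30 barcode sequences. Barcodes were sorted into cell classes by markers detected after each was thinned to 2000 UMIs, and no member of the IGF axis was a marker. Between 76 and 4693 barcodes per library had fewer UMIs and were left out, the most in repetitive bleomycin (4693) and fibrogenic organoids (2976). This left 834 PBS and 767 bleomycin FBs from the single-dose libraries, 5048 and 5031 from the repetitive libraries, and 2001 normal and 2799 fibrogenic FBs from organoids. Levels are given as CPM, the UMIs of a gene summed over the barcodes of a class and divided by the class total, times 1e6. All 8 FB markers were above 10 CPM in each FB class. In lung FBs the immune marker list summed to 18.7 to 122 CPM and the epithelial list to 18.5 to 73.3 CPM, against 8941 to 28569 CPM for the FB list. Brackets give 95% intervals, exact Poisson for CPM and exact Clopper-Pearson for shares, which cover counting error only. A log2 ratio was taken after adding 1 CPM, and a gene counts as past 2-fold at a log2 ratio of 1 or −1 where its mean was at least 10 CPM.

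In FBs after a single dose of bleomycin, Igf1, Igfbp2 and Igfbp4 were higher past 2-fold and Igfbp3 and Igfbp6 lower. Of the 8 genes 3 were thus higher and 2 lower, where 5.72% of 7884 measured genes were higher and 3.78% lower. Igfbp2 reached the mean of 10 CPM only through the bleomycin library, so it had to differ, and without it 2 members were higher. In the repetitive experiment Igf1, Igfbp4 and Igfbp7 were higher and Igfbp3 lower. These 3 higher genes and 1 lower gene stand beside 4.72% higher and 2.23% lower of 8772 genes. Igfbp2 was also higher there, but its mean lay under 10 CPM and it was not counted. The sign of the ratio was the same in both experiments for each of the 8 genes. The share of all genes with the same sign is not given, so this describes the 8 genes alone. In these bulk sums, fewer cells of a type and less RNA per cell cannot be told apart.

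**Figure D1:**
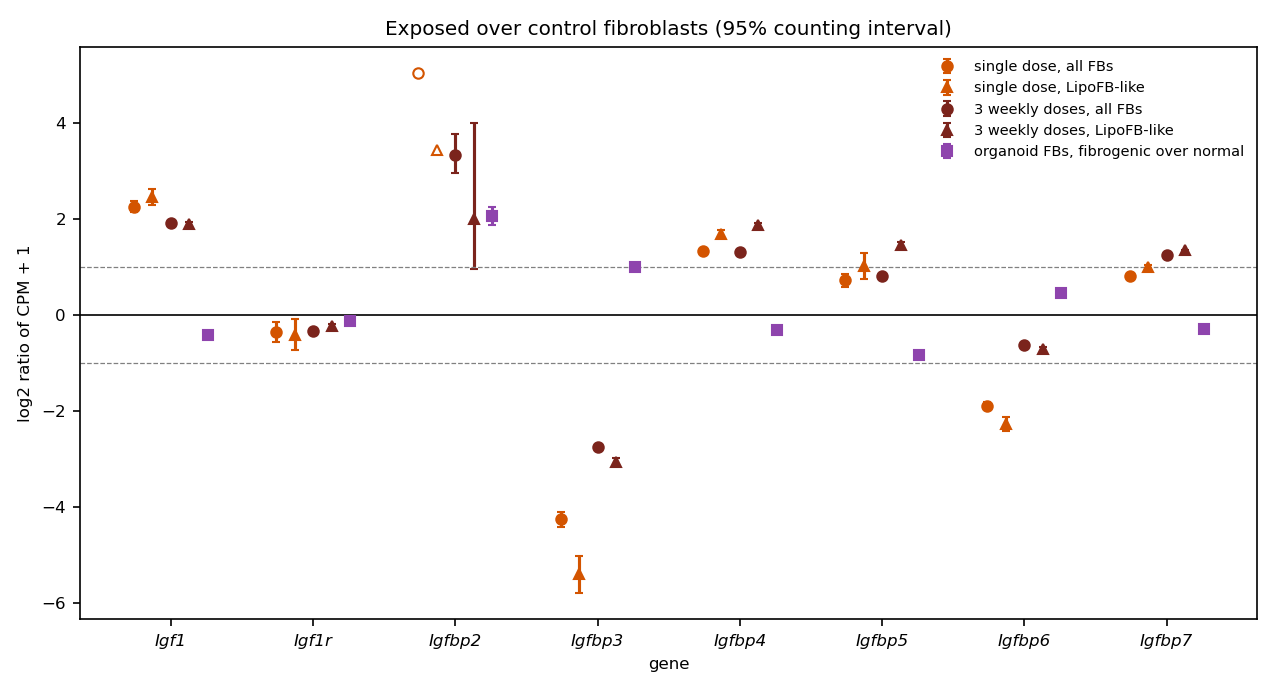
Log2 ratios of CPM plus 1 (vertical axis) for each gene (horizontal axis) in single-dose and repetitive bleomycin over PBS, for all FBs (circles) and LipoFB-like FBs (triangles), and in fibrogenic over normal organoid FBs (squares). Each point is 1 library over 1 library, bars are 95% counting intervals, dashed lines mark 2-fold, and open symbols mark Igfbp2 with 0 UMIs in PBS, where the position depends on the added 1 CPM. Igf1 sits at 2.26 and 1.92 in lung FBs and at −0.42 in organoid FBs.

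Windows of 250 bases before the start site are shown for Igf1, Igfbp4, Igfbp3 and Igfbp6. These are the members past 2-fold after a single dose with UMIs in both libraries, of which 2 were higher and 2 lower. They come from RefSeq on GRCm38.p6, where all 8 members matched an entry by symbol. The windows are chr10:87860861-87861110 (plus strand) for Igf1, chr11:99040994-99041243 (plus strand) for Igfbp4, chr11:7213924-7214173 (minus strand) for Igfbp3 and chr15:102143936-102144185 (plus strand) for Igfbp6. Except for Igfbp6, the listed start lies inside the full span of the gene, so that a longer transcript also covers the window. Capitals mark matches on either strand to TATAAA (the TATA box), to GGGCGG (the GC box), to CCAAT (the CCAAT box) and to TGANTCA. The last allows any base at N and is looser than the AP-1 motif, which has C or G there.
Igf1: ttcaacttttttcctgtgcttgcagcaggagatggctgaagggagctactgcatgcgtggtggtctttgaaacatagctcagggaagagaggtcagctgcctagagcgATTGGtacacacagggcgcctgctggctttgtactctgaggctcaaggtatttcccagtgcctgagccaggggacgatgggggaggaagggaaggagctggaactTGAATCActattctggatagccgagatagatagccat
Igfbp4: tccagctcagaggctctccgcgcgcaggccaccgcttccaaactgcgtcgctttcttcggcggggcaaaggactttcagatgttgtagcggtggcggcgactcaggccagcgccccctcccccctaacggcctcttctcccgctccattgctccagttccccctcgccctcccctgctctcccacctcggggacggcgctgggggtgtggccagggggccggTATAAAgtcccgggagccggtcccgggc
Igfbp3: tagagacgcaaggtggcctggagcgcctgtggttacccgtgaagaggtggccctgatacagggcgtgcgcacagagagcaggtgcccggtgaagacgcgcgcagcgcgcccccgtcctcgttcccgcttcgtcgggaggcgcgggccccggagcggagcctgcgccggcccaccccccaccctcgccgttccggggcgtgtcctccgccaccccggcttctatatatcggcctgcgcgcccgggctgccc
Igfbp6: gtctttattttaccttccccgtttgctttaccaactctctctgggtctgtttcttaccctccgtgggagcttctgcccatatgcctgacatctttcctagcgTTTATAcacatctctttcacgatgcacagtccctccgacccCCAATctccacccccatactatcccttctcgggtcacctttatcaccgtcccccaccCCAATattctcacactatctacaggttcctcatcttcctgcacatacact
Igf1 held CCAAT on the opposite strand 142 bases before the start and TGANTCA, with A at N, 37 bases before it. Igfbp4 held TATAAA 28 bases before the start. Igfbp6 held TATAAA on the opposite strand at 148 bases, and CCAAT at 107 and 50 bases. Igfbp3 held none of the 4 motifs in this window, of which 73.2% was G or C with 32 CpG, against 52.8% and 5 CpG for Igf1, 69.2% and 22 CpG for Igfbp4, and 49.6% and 7 CpG for Igfbp6. Of 32851 windows of this length, 12.4% held TATAAA, 32.7% GGGCGG, 33.8% CCAAT and 6.75% TGANTCA. The motifs do not overlap one another in these windows. A match here is a description of letters, and the members that were higher shared no motif.

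The FB subsets were gated by their own markers and are given as LipoFB-like, the lipid-storing alveolar FBs, and MatrixFB-like, the FBs rich in Col14a1 and Dcn. MyoFB-like barcodes were gated on a list with genes such as Cthrc1, Postn and Acta2, and injured FB-like on genes such as Sfrp1, Eln and Saa3. A barcode need not hold each gene of its list. LipoFB-like barcodes made up 71.3% [68.1 to 74.4] of FBs after single-dose PBS and 33.5% [30.2 to 37.0] after bleomycin, and 71.0% [69.8 to 72.3] and 33.7% [32.4 to 35.1] in the repetitive experiment. MatrixFB-like barcodes made up 9.23% [7.35 to 11.4] and 16.2% [13.6 to 19.0] of FBs, and 10.9% [10.0 to 11.7] and 25.7% [24.5 to 27.0]. The gates are ranges of a marker count, and 23.5% to 38.7% of LipoFB-like and 33.1% to 38.3% of MatrixFB-like barcodes stood exactly at the limit. MyoFB-like (99 and 166 barcodes) and injured FB-like classes (99 and 523) were large enough only after bleomycin, since the PBS libraries held 1 to 5 barcodes of each. Of these, 61.6% and 71.7% of MyoFB-like and 52.5% and 62.3% of injured FB-like barcodes were at the limit. A LipoFB-like barcode held a median of 4 of 8 injured FB markers after single-dose bleomycin and 3 after repetitive bleomycin, against 1 in both PBS libraries. The gated class itself thus differed in these markers between conditions.

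Igf1, the ligand (chromosome 10, 87858265 to 87937047 on GRCm38.p6), stood at 113 CPM [105 to 122] in FBs after single-dose PBS and at 546 CPM [532 to 561] after bleomycin. It stood at 127 CPM [124 to 130] after repetitive PBS and 484 CPM [479 to 490] after repetitive bleomycin. In each experiment the bleomycin library lay above its PBS library. The log2 ratio was 2.26 [2.14 to 2.38] for the single dose, a 4.82-fold difference, and 1.92 [1.88 to 1.96] for repetitive doses, a 3.80-fold difference. At 2000 UMIs per barcode, the share of FBs with an Igf1 UMI was 17.6% after PBS and 55.0% after a single dose of bleomycin, and 19.3% and 49.6% in the repetitive experiment. Without thinning these shares were 45.0%, 90.9%, 57.3% and 79.2%. The 29, 15, 187 and 206 immune barcodes of these libraries, which show what free RNA and their own RNA add up to, had Igf1 UMIs in 3.45%, 6.67%, 1.60% and 9.71% at 2000 UMIs. The immune barcodes of repetitive bleomycin held 110.3 CPM of Igf1, 22.8% of the FB level, while their sum of the 8 FB markers was 4.41% of that in FBs. In repetitive PBS the immune barcodes held 11.5 CPM [6.10 to 19.6] of Igf1, from 13 UMIs, and their marker sum was 4.36% of that in FBs. Within the FB gate the immune marker list summed to 61.7 CPM after single-dose PBS and 122 CPM after bleomycin, and to 18.7 and 76.8 CPM in the repetitive experiment, so it was higher after bleomycin as Igf1 was. Macrophages are a known source of IGF1, and the part of immune RNA in the Igf1 difference was not tested.

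Igf1 was higher after bleomycin within the gated subsets as well. LipoFB-like FBs stood at 88.4 and 493 CPM in the single-dose libraries and at 109 and 408 CPM in the repetitive ones. MatrixFB-like FBs stood at 223 and 657 CPM, and at 231 and 436 CPM. Among PBS FBs the MatrixFB-like class was thus above the LipoFB-like class in both experiments, with log2 ratios of 1.32 and 1.07. After bleomycin the MyoFB-like class held 532 CPM [500 to 565] for the single dose and 789 CPM [756 to 824] for repetitive doses, and the injured FB-like class 511 and 656 CPM. In the repetitive library the order was MyoFB-like, injured FB-like, MatrixFB-like and LipoFB-like, and in the single-dose library MatrixFB-like was first, with LipoFB-like, injured FB-like and MyoFB-like between 493 and 532 CPM. The intervals of LipoFB-like [469 to 519] and MyoFB-like FBs overlapped there.

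**Figure D2:**
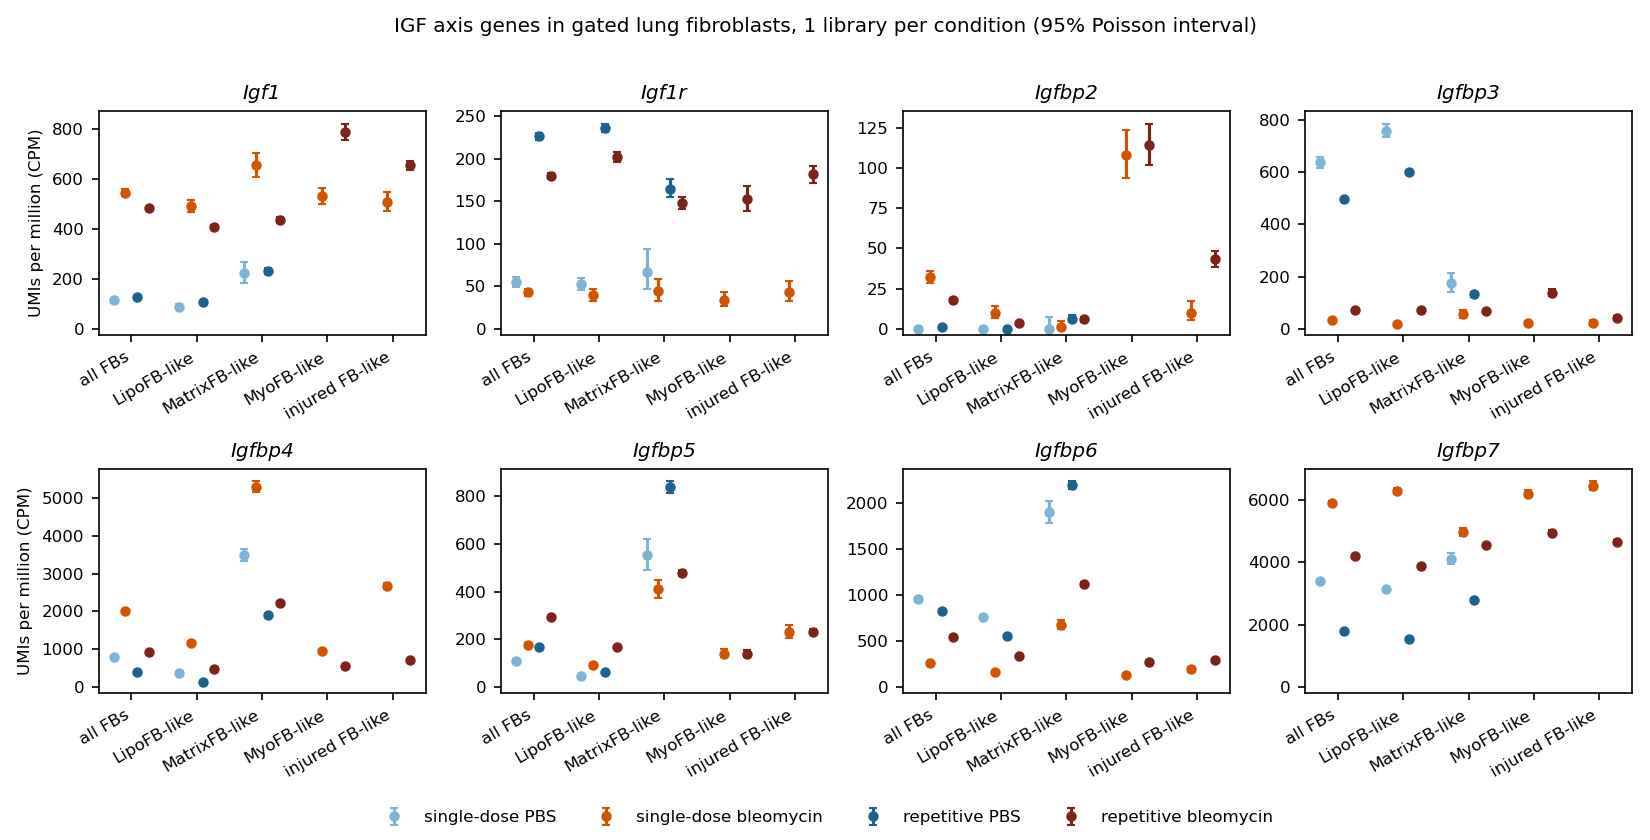
Summed CPM of each gene (vertical axes, linear, 1 scale per gene) in all FBs and in the gated subsets of the 4 lung libraries. Points are 1 library each, bars are 95% Poisson intervals, and subsets under 50 barcodes are left out. Igfbp3 of LipoFB-like FBs sits at 759.9 and 602 CPM after PBS and at 16.98 and 71.6 CPM after bleomycin.

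Igf1r, the receptor kinase (chromosome 7, 67952257 to 68233668), differed less than 2-fold in lung FBs. FBs held 54.7 CPM [48.9 to 61.1] after single-dose PBS and 42.8 CPM [38.8 to 47.0] after bleomycin, a log2 ratio of −0.35 [−0.55 to −0.14]. In the repetitive libraries they held 226 CPM [223 to 230] and 179.6 CPM [176 to 183], a log2 ratio of −0.33 [−0.37 to −0.30]. The receptor was lower after bleomycin in both experiments, by a similar ratio. The levels themselves are not set against each other across experiments, since the tables were made with different gene sets. LipoFB-like FBs held 52.6 and 39.4 CPM in the single-dose libraries and 237 and 202 CPM in the repetitive ones. Of repetitive PBS immune barcodes 22.5% had an Igf1r UMI, against 34.4% of FBs (29.4% and 80.4% without thinning), and the immune level was 69.7% of the FB level, while their FB marker sum was 4.36% of that in FBs. After repetitive bleomycin the immune level of Igf1r was 35.0% of the FB level, beside 4.41% for the marker sum. Igf1r UMIs were thus also found outside the FB gate, at a higher relative level than the FB markers.

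Igfbp2 (chromosome 1, 72824480 to 72852474) encodes a binding protein that prefers IGF2. It had 0 UMIs in 834 single-dose PBS FBs and 322 UMIs in 767 bleomycin FBs, or 32.0 CPM [28.6 to 35.7]. Against a limit set at 3 counts over the PBS group, or 0.512 CPM, this was 62.6-fold higher. That limit takes UMIs as independent, while most Igfbp2 UMIs lay in few barcodes, so the fold is not a firm lower bound. In FBs given repetitive doses its level was 17.9 CPM [16.8 to 19.1] with bleomycin and 0.859 CPM [0.636 to 1.14] with PBS, a 20.8-fold difference. The 10 richest barcodes held 82.6% of the UMIs in single-dose bleomycin, with 74 in 1 barcode, and 35.6% in repetitive bleomycin, with 71 in 1 barcode. These shares are of 767 and 5031 FBs and are not set against each other. At 2000 UMIs, 21 FBs (2.74%) and 80 FBs (1.59%) had an Igfbp2 UMI. The immune level of Igfbp2 was 103% of the low FB level in repetitive PBS and 0% of the FB level in repetitive bleomycin. At a level near 0.859 CPM, the 187 immune barcodes of repetitive PBS hold too few UMIs for the 103% to describe immune cells.

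The MyoFB-like class held the highest Igfbp2 level of the subsets with at least 50 barcodes in both bleomycin libraries. It reached 108 CPM [94.0 to 124] and 114 CPM [102 to 128], against 9.93 and 3.29 CPM in LipoFB-like FBs of the same libraries, which is 10.9-fold and 34.7-fold. The log2 ratios between these classes, 3.32 and 4.75, went up to 5.42 and 5.48 over 3 other settings. MyoFB-like barcodes carried 65.8% of the FB UMIs of Igfbp2 in the single-dose library and 30.7% in the repetitive one, where injured FB-like barcodes carried a further 30.6%. The injured FB-like class stood at 9.95 and 43.3 CPM and the MatrixFB-like class at 0.881 and 5.80 CPM. In the single-dose bleomycin library 2 barcodes with smooth muscle markers held 27 UMIs, all in 1 barcode, or 8.39% of the FB total, a level of 951 CPM [627 to 1383]. Smooth muscle markers summed to 71.4 CPM in FBs after single-dose PBS and 255 CPM after bleomycin, and to 55.2 and 118 CPM in the repetitive experiment. Their part in the Igfbp2 difference was not tested.

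Igfbp3 (chromosome 11, 7206086 to 7215498) encodes the main carrier of IGF in blood, which is also made locally in tissues. It was the member with the widest difference in the lower direction. FBs held 638 CPM [617 to 658] after single-dose PBS and 32.4 CPM [29.0 to 36.2] after bleomycin, 19.7-fold lower, with a log2 ratio of −4.26 [−4.42 to −4.10]. In the repetitive experiment they held 496 CPM [490 to 502] and 72.4 CPM [70.2 to 74.7], 6.85-fold lower, with a log2 ratio of −2.76 [−2.81 to −2.71]. In each experiment the intervals of PBS and bleomycin lay far apart. The share of FBs with a UMI went from 46.0% to 4.82% and from 43.1% to 9.08%, and immune barcodes had shares of 3.45%, 0%, 3.21% and 0.485% in the same order. Without thinning, 64.0% and 14.5% and then 66.1% and 19.2% of FBs had a UMI.

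Igfbp3 RNA lay mainly in LipoFB-like FBs, which carried 85.0% and 86.0% of the FB UMIs in the PBS libraries while making up 71.3% and 71.0% of FBs. It remained lower after bleomycin inside that gate. LipoFB-like FBs held 759.9 CPM [734 to 787] and 16.98 CPM [12.7 to 22.2] in the single-dose libraries, 44.7-fold lower, and 602 CPM [595 to 610] and 71.6 CPM [68.0 to 75.4] in the repetitive ones, 8.41-fold lower. The difference within the gate was wider than over all FBs in both experiments, and the gated class held more injured FB markers after bleomycin, as given above. MatrixFB-like FBs stood at 174 and 54.6 CPM and at 133 and 66.3 CPM, so the LipoFB-like class was 4.37-fold and 4.55-fold above the MatrixFB-like class after PBS. The log2 ratio of MatrixFB-like over LipoFB-like FBs went down to −3.17 and −2.93 over 3 other settings. After a single dose of bleomycin the order was turned, and after repetitive doses the levels were 71.6 and 66.3 CPM. The single-dose MatrixFB-like log2 ratio of −1.65, with 77 PBS barcodes, ranged from −1.73 to −0.40 over 8 other settings. The share of LipoFB-like barcodes with an Igfbp3 UMI was 53.6% and 3.50%, and 51.1% and 10.4%. MyoFB-like FBs of repetitive bleomycin held 138 CPM [124 to 152], above the LipoFB-like class. In the single-dose library they held 23.4 CPM [17.2 to 31.3], a log2 ratio over LipoFB-like FBs of 0.44 [−0.13 to 1.02]. Igfbp1, which lies 3.54 kb from Igfbp3 on the opposite strand, had 1 UMI in FBs of repetitive PBS and 0 UMIs in FBs of the other 3 lung libraries.

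Igfbp4 (chromosome 11, 99040005 to 99052655), a binding protein that holds IGF from its receptor until PAPP-A cleaves it, was higher after bleomycin. FBs held 790.0 CPM [767 to 813] after single-dose PBS and 1994 CPM after bleomycin, a log2 ratio of 1.33 [1.29 to 1.38], or 2.52-fold. The repetitive libraries held 376 CPM [371 to 381] and 929.7 CPM [922 to 938], a log2 ratio of 1.30 [1.28 to 1.33], or 2.47-fold. The ratio was thus close to the same in both experiments. The share with a UMI went from 40.3% to 74.2% and from 27.5% to 64.6%, beside 3.45%, 26.7%, 4.81% and 9.22% of immune barcodes. Without thinning it was 55.3% and 93.4%, and 44.9% and 84.7% of FBs.

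Igfbp4 marked the MatrixFB-like class, although it was not one of the gate's genes. After PBS that class held 3492 and 1891 CPM, against 362 and 125 CPM in LipoFB-like FBs, which is 9.66-fold and 15.2-fold. Over 3 other settings the log2 ratio between these classes ranged from 3.27 to 4.12 in single-dose PBS and from 3.91 to 4.48 in repetitive PBS. MatrixFB-like barcodes carried 38.2% and 48.8% of the FB UMIs of Igfbp4 in the PBS libraries at 9.23% and 10.9% of FBs. After bleomycin the LipoFB-like class stood higher, at 1169 and 458 CPM, and the MatrixFB-like class at 5307 and 2217 CPM. The injured FB-like class held 2669.7 CPM after a single dose and 712 CPM after repetitive doses. In each of the 4 libraries the MatrixFB-like class was the highest of the gated subsets.

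Within PBS libraries the share of FBs with an Igfbp3 UMI was lower among those with an Igfbp4 UMI. Of single-dose PBS FBs with an Igfbp4 UMI, 25.9% also had an Igfbp3 UMI, against 59.6% of the other FBs. In repetitive PBS the shares were 21.0% and 51.5%. The difference was also there inside the LipoFB-like class, at 30.1% and 61.8% and at 26.1% and 54.8%. The MatrixFB-like class of the PBS libraries did not show it in both experiments, at 17.3% and 0% after a single dose, where the others were 2 barcodes, and 13.6% and 20% after repetitive doses. After bleomycin, when few FBs had an Igfbp3 UMI, the shares in all FBs were 5.10% and 4.04% (single dose) and 8.98% and 9.26% (repetitive). These are counts of barcodes within a library, which are not replicates.

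**Figure D3:**
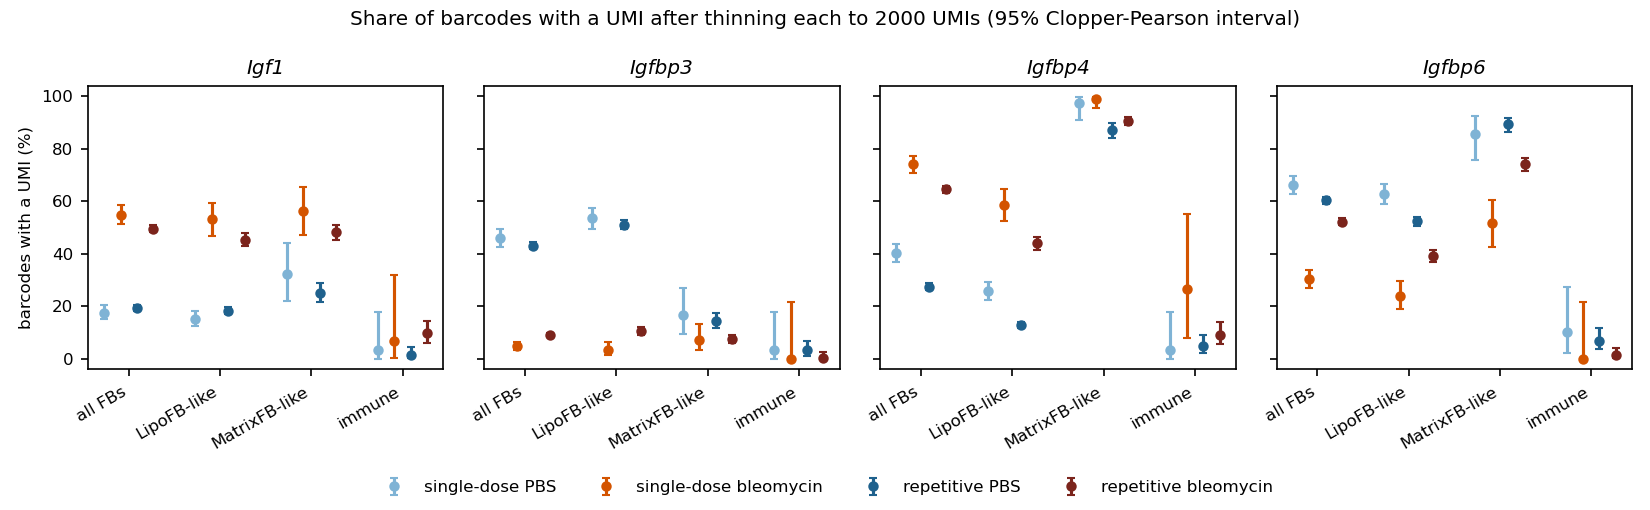
Percent of barcodes with at least 1 UMI of Igf1, Igfbp3, Igfbp4 or Igfbp6 at 2000 UMIs per barcode (vertical axis), for all FBs, LipoFB-like and MatrixFB-like FBs and immune barcodes of the 4 lung libraries. Points are 1 library each and bars are exact 95% intervals. FBs with Igfbp3 go from 46.0% to 4.82% and those with Igfbp4 from 40.3% to 74.2% between single-dose PBS and bleomycin.

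Igfbp5 (chromosome 1, 72858065 to 72874865), a binding protein that attaches to the extracellular matrix, lies 5.59 kb from Igfbp2 on the opposite strand. FBs held 106 CPM [98.2 to 115] and 177 CPM [168 to 185] in the single-dose libraries, a log2 ratio of 0.73 [0.59 to 0.86]. In the repetitive libraries they held 165 CPM [161 to 168] and 292 CPM [288 to 297], a log2 ratio of 0.82 [0.79 to 0.86]. The gated subsets differed in direction, except that the single-dose MatrixFB-like log2 ratio of −0.43 became 0.14 with another thinning seed. Over 8 other settings it ranged from −1.18 to 0.14. LipoFB-like FBs were higher after bleomycin, at 43.5 and 89.7 CPM and at 60.3 and 167 CPM. MatrixFB-like FBs were lower, at 553 CPM [490 to 621] and 411 CPM [374 to 450] and at 839 CPM [815 to 863] and 478 CPM [465 to 492]. After PBS the MatrixFB-like level was 12.7-fold and 13.9-fold that of the LipoFB-like class, with log2 ratios of 3.63 to 4.96 and 3.78 to 4.74 over 3 other settings, and MatrixFB-like barcodes carried 44.9% and 49.4% of the FB UMIs. Whether the opposite directions differ beyond the spread between mice was not tested.

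Igfbp6 (chromosome 15, 102144186 to 102149512), a binding protein with a strong preference for IGF2, was lower after bleomycin. FBs held 951 CPM [926 to 976] and 257 CPM [247 to 267] in the single-dose libraries, 3.71-fold lower, with a log2 ratio of −1.89. In the repetitive libraries they held 829 CPM [821 to 836] and 539 CPM [533 to 545], a log2 ratio of −0.62, which is under 2-fold. The direction was shared and the size was not. LipoFB-like FBs held 759 and 156 CPM and 552 and 337 CPM, and MatrixFB-like FBs 1899 and 676 CPM and 2198 and 1123 CPM. Igfbp6 was thus higher in the MatrixFB-like class, with log2 ratios over LipoFB-like FBs of 1.32 and 1.99 after PBS, and lower after bleomycin in both classes. The share of FBs with a UMI was 66.3% and 30.4%, and 60.4% and 52.3%, beside 10.3%, 0%, 6.95% and 1.46% of immune barcodes, and without thinning 88.4% and 68.8%, and 88.6% and 78.5%.

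Igfbp7 (chromosome 5, 77349240 to 77408045), a relative of the binding proteins that binds IGF weakly and is deposited in matrix, had a UMI in nearly every FB. FBs held 3388 and 5922 CPM in the single-dose libraries, a log2 ratio of 0.81, and 1778 and 4216 CPM in the repetitive libraries, a log2 ratio of 1.25, or 2.37-fold. At 2000 UMIs, 98.8% and 99.0% and then 92.8% and 98.9% of FBs had a UMI, beside 20.7%, 73.3%, 8.02% and 16.5% of immune barcodes. The immune level was 5.55% and 1.81% of the FB level in the repetitive libraries. With most FBs already holding a UMI, the share has little room to move, and levels are given by CPM. LipoFB-like FBs went from 3128 to 6298 CPM and from 1520 to 3880.5 CPM. MatrixFB-like FBs held 4108 and 4974 CPM and 2804 and 4559 CPM, a smaller difference in the single-dose pair. The MyoFB-like class held 6209 and 4952 CPM and the injured FB-like class 6468 and 4671 CPM. Bleomycin classes therefore lay in a narrow band of 4974 to 6468 CPM in the single-dose library and 3880 to 4952 CPM in the repetitive one.

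Within LipoFB-like FBs 4 of the 8 genes were higher past 2-fold after a single dose (Igf1, Igfbp4, Igfbp5 and Igfbp7) and Igfbp3 and Igfbp6 were lower, where 4.9% of measured genes were higher and 2.87% lower. After repetitive doses the same 4 were higher and Igfbp3 lower, beside 4.1% and 1.89% of genes. In the single-dose pair Igfbp5 and Igfbp7 stood near the limit, at log2 ratios of 1.03 and 1.01, and both fell under it when ratios were centred on the median gene. Between the classes of the PBS libraries, MatrixFB-like FBs were higher past 2-fold than LipoFB-like FBs for Igf1, Igfbp4, Igfbp5 and Igfbp6 and lower for Igfbp3 in both experiments, although the Igf1 log2 ratio in repetitive PBS was under the limit, at its lowest 0.92, with 1 marker more and with another thinning seed. These 4 higher and 1 lower of 8 genes stand beside 9.05% higher and 8.72% lower of all genes in single-dose PBS, and 7.08% and 6.68% in repetitive PBS. Classes of 1 library share its cells and are not replicates of each other. An FB at 2000 UMIs had a median of 3 of the 6 binding protein genes in single-dose PBS and 2 after bleomycin, and of 2 and 3 in the repetitive pair.

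In organoids the FBs of both kinds had spent 2 weeks in culture with AEC2s. Of the 8 genes 1, Igfbp3, was higher past 2-fold in fibrogenic over normal organoid FBs and 0 were lower, where 0.249% of 8026 genes were higher and 0.723% lower. Igfbp3 stood at 39.9 CPM [38.7 to 41.1] with normal and 80.9 CPM [79.4 to 82.3] with fibrogenic FBs, a log2 ratio of 1.00, so that it sat at the limit, and 5 of 9 other settings put it under 2-fold. Igf1 stood at 464 CPM [460 to 468] and 347 CPM [344 to 350], and Igf1r at 103 and 94.6 CPM. Igfbp4 stood at 607 and 491 CPM, Igfbp5 at 463 and 259.9 CPM, Igfbp6 at 238 and 329 CPM, and Igfbp7 at 3014 and 2447 CPM. Igfbp2 stood at 2.05 and 11.8 CPM, with 95.1% and 77.8% of its UMIs in 10 barcodes.

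The sign of the organoid ratio was opposite to that of both lung ratios for 6 of the 8 members and the same for Igf1r and Igfbp2. The organoid ratio of Igf1r, −0.12, turned positive when no gate was used. Igfbp2 was higher in all 3 comparisons, with log2 ratios of 5.05, 3.35 and 2.07, although its mean lay under 10 CPM in the repetitive and organoid pairs. Igf1, Igfbp4, Igfbp5 and Igfbp7 were higher in lung FBs after bleomycin and lower in fibrogenic organoid FBs, while Igfbp3 and Igfbp6 went the other way. Of 2823 genes with the same direction in both lung experiments, 2164 also had a direction in organoid FBs. Of these 2164 genes 1009 (46.6%) were opposite, and on that count 6 of 7 members were. The organoid ratios of the 7 members other than Igfbp2 lay between −0.83 and 1.00. Organoid FBs also held epithelial RNA, with 928 and 937 CPM of the epithelial list, most of it Sftpc at 889 and 894 CPM.

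Organoid epithelial barcodes, 1593 with normal and 1418 with fibrogenic FBs, held the receptor and Igfbp7 but little of the ligand. Of the 8 genes only Igf1r, Igfbp5 and Igfbp7 had a mean of at least 10 CPM. Of these, 0 were past 2-fold between the organoids, beside 0.199% of genes higher and 0.149% lower of 8057. The remaining members lay under that mean and could not be counted. Igf1r stood at 58.1 CPM [56.3 to 59.9] and 63.7 CPM [61.6 to 65.9], a log2 ratio of 0.13, and Igfbp7 at 837 and 1254 CPM, a log2 ratio of 0.58. Igf1 stood at 2.02 and 3.43 CPM, which is 0.436% and 0.989% of the level in FBs of the same organoid, where Col1a1 stood at 0.646% and 1.14%. The other members, Igfbp2 to Igfbp6, held 0.373 to 16.6 CPM. Igf1r at 56.4% and 67.4% of the FB level and Igfbp7 at 27.8% and 51.2% stood above both Col1a1 and the 8 FB markers summed, which were at 5.89% and 7.22% of the FB level. These epithelial barcodes also held 8206 and 9100.3 CPM of the immune list, of which only 2 of 8 genes were above 10 CPM. Ptprc, another gene of that list, stood at 0.0861 and 0.0964 CPM. The FB list summed to 1066 and 1318 CPM.

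**Figure D4:**
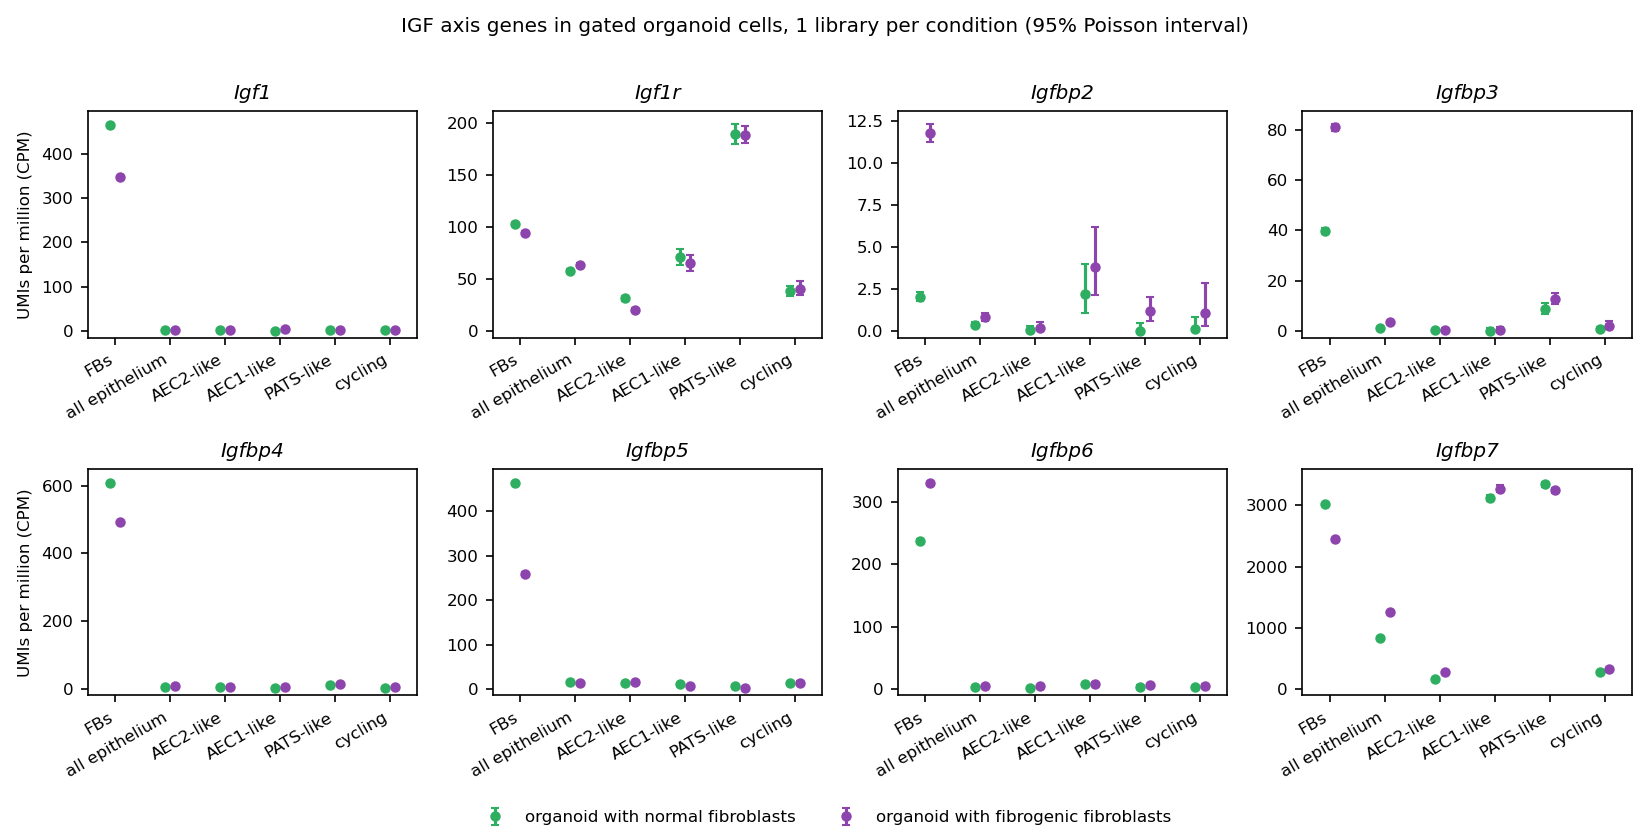
Summed CPM of each gene (vertical axes, linear, 1 scale per gene) in organoid FBs, in all epithelial barcodes and in the AEC2-like, AEC1-like, PATS-like and cycling classes, with normal and fibrogenic FBs side by side. Points are 1 library each and bars are 95% Poisson intervals. Igf1r sits at 189.6 and 189 CPM in PATS-like and at 31.5 and 20.3 CPM in AEC2-like barcodes.

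The epithelium was divided into AEC2-like, AEC1-like, cycling and PATS-like barcodes, the last named for the pre-alveolar type 1 transitional state that lies between AEC2s and AEC1s. PATS-like barcodes made up 12.9% [11.3 to 14.6] of epithelial barcodes with normal and 22.6% [20.5 to 24.9] with fibrogenic FBs. Igf1r stood at 189.6 and 189 CPM in PATS-like, 71.4 and 65.3 CPM in AEC1-like, 38.8 and 41.0 CPM in cycling and 31.5 and 20.3 CPM in AEC2-like barcodes. The order of the 4 classes was the same in both organoids. An Igf1r UMI was found in 27.8% and 24.3% of PATS-like barcodes and in 5.59% and 2.31% of AEC2-like barcodes at 2000 UMIs, and without thinning in 80.0% and 70.7% and in 45.3% and 31.1%. Igfbp7 stood at 3345 and 3241 CPM in PATS-like, 3113 and 3269 CPM in AEC1-like, 285 and 330.0 CPM in cycling and 166 and 285 CPM in AEC2-like barcodes. PATS-like and AEC1-like barcodes thus held like levels of Igfbp7 and unlike levels of Igf1r.

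Over AEC2-like barcodes, PATS-like barcodes had log2 ratios of 2.55 and 3.16 for Igf1r and of 4.33 and 3.50 for Igfbp7. The median gene of these comparisons stood at 0.29 and 0.24, so both genes were higher also relative to that shift. In both organoids these 2 of the 8 members were higher past 2-fold and 0 lower, beside 16.5% higher and 8.78% lower of all genes with normal FBs and 13.5% and 8.89% with fibrogenic FBs. Igf1, Igfbp2, Igfbp3 and Igfbp6 were not counted in either organoid, nor Igfbp4 with normal FBs, since their means lay under 10 CPM. Igfbp3 stood at 8.97 and 12.9 CPM in PATS-like barcodes (71 and 140 UMIs) and at 0.326 and 0.666 CPM in AEC2-like barcodes (8 and 12 UMIs), log2 ratios of 2.91 and 3.06. Igfbp5 was low in these classes, at 7.07 and 3.69 CPM in PATS-like and 13.7 and 15.3 CPM in AEC2-like barcodes. Its log2 ratios were −0.87 and −1.80, the latter also with a mean under 10 CPM. The classes differ in gate as well as in state, since AEC2-like barcodes were required to carry surfactant genes.

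The wider pathway was followed with 33 other genes, the remaining ligands, receptors, proteases, adaptors, kinases and proteins with an IGFBP domain. In lung FBs 1 of the 18 tested genes was higher and 0 lower after a single dose, with a median log2 ratio of 0.00 beside 0.05 for all genes, of which 5.72% were higher and 3.78% lower. After repetitive doses 1 of 22 was higher and 0 lower, with a median of 0.08 beside 0.08 and 4.72% and 2.23% of all genes. A count of 1 gene is near these shares and is no result about the list. The gene was Pappa in both, the protease that cleaves IGFBP4, which stood at 3.92 and 19.0 CPM (log2 ratio 2.02) and at 20.1 and 52.3 CPM (log2 ratio 1.33). In the single-dose pair it reached a mean of 10 CPM only through the bleomycin library, so its count there is a description, and at a minimum of 50 CPM 0 listed genes were higher in either experiment. The tested adaptors and kinases of the list stayed within 2-fold in all FBs. Within LipoFB-like FBs 0 listed genes were higher and 1 lower after a single dose, where Pappa stood at 3.82 and 10.3 CPM, under the mean of 10 CPM, and the lower gene was Htra1 at 76.2 and 24.7 CPM. After repetitive doses 1 was higher there, Pappa at 12.2 and 28.0 CPM, and 0 lower. Among all genes of this class 4.9% were higher and 2.87% lower after a single dose and 4.1% and 1.89% after repetitive doses. By the mean CPM over the 4 lung libraries, which differs from the order within an experiment, the listed genes of highest level were Ghr, the growth hormone receptor, at 144 and 122 CPM and at 499 and 521 CPM, and Socs2, an inhibitor of growth hormone signalling, at 222 and 247 CPM and at 177 and 170 CPM. Socs2 was above Ghr in the single-dose libraries and below it in the repetitive ones. Igf2, the other IGF ligand, had 0 UMIs in the single-dose FBs and stood at 2.26 CPM after repetitive PBS and 1.45 CPM after repetitive bleomycin. In organoid FBs 1 of 19 listed genes was higher and 0 lower, beside 0.249% and 0.723% of all genes. In organoid epithelium 0 of 15 passed in either direction, beside 0.199% and 0.149%. The higher gene in organoid FBs was Htra1, at 73.5 and 164 CPM. Htra1, a serine protease with an IGFBP domain, was named after its values were seen.

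The genes whose levels most resembled each member were found over the 24 gated groups of at least 50 barcodes, among 6345 genes, by Pearson's r of log2 levels. The groups share libraries and cells and come from all 6 libraries, whose tables were made with different gene sets, so r also holds differences between tables and is a description with no test. They include organoid epithelial and immune classes beside FBs. A high r can therefore hold the contrast between cell types and need not hold among FBs alone. Igf1 lay closest to Eng (0.978), Clmp (0.974) and Mmp2 (0.973), of which Mmp2 is a matrix metalloproteinase. Igfbp3 lay closest to Gpm6b (0.911), Vgll3 (0.905) and Hotairm1 (0.904). Igfbp4 lay closest to Kcnj8, Podn and Cygb (0.980, 0.980 and 0.975), Igfbp5 to Lgi2, Jam3 and Aebp1 (0.987, 0.958 and 0.958), and Igfbp6 to Gas1, Srpx and Rhoj (0.979, 0.974 and 0.973). Igfbp7 lay closest to Plscr3, Fstl3 and Sphk1 (0.961, 0.952 and 0.942). The highest values of Igf1r, with Abtb2, Sik1 and Shoc2 (0.883, 0.879 and 0.877), and of Igfbp2, with Thbs4, Col7a1 and Megf11 (0.843, 0.837 and 0.831), were lower than those of the other members.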

How the data were processed

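Droplet single-cell RNA sequencing was performed on 6 libraries, 1 per condition, each of 3 pooled mice. The authors processed the reads with Cell Ranger 3.0.1 (the labels' processing notes also name Seurat 3) and deposited raw UMI counts per gene and barcode. The methods name GRCm38 with Gencode M17 and do not limit it to certain libraries, but the tables differ in their gene rows. Whether all tables used this annotation is not settled here. Tables held 30830, 30828 and 32285 gene rows.

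From these counts, barcodes were removed where the mitochondrial share exceeded the median of the library by over 3 scaled median absolute deviations (36 to 369 per library), and each remaining barcode was thinned to 2000 UMIs for gating. FB gates needed at least 3 of 8 markers (4 in organoids), LipoFB-like 4, MatrixFB-like 5, injured FB-like 4 and MyoFB-like 3. In organoids AEC2-like needed 4, AEC1-like and PATS-like 3. These limits were set after marker distributions had been seen. No doublet caller was run. Lung FB gates allowed at most 1 marker each of the epithelial, endothelial and immune lists. Organoid FB gates allowed at most 1 epithelial marker, and organoid epithelial gates at most 2 FB markers. Immune and endothelial markers were not used in organoids. Barcodes past these limits, or with too few markers of any list, stayed unassigned, 71 to 1332 per library. Full counts were then summed per class with Python 3.11.15, numpy 2.4.6, scipy 1.17.1 and pandas 2.3.3, and scaled to CPM. Log2 ratios used a pseudocount of 1 CPM, and classes under 50 barcodes entered no ratio. Shares of single-dose immune barcodes and the Igfbp2 level of barcodes with smooth muscle markers are given from smaller classes. Simulated Poisson counts were used to check log2 ratios and their intervals, and draws from an averaged LipoFB-like profile to check the gate. Neither held differences between mice, or between cells of a class beyond counting error, so that spread was not tested.

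Named genes were the 8 members, pathway genes past 2-fold in the same direction in both lung experiments, the 2 of highest level, and the 3 genes most correlated with each member. Members and lists were chosen with earlier results of these data known, and Igfbp3 had been seen to be lower in bleomycin LipoFBs. Alternatives were median centring, equal barcode weights, no gate, 1 marker more, thinning to 1000 UMIs, another seed, no mitochondrial filter, a pseudocount of 0.1 CPM, a minimum of 50 CPM and unthinned shares.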

Additional observations from a re-analysis of the deposited data

Results flagged for a closer look

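For 6 members the ratio of fibrogenic over normal organoid FBs had the opposite sign to both lung ratios of bleomycin over PBS. Igf1 had log2 ratios of 2.26 (single dose), 1.92 (repetitive doses) and −0.42 (organoid FBs), and Igfbp4 had 1.33, 1.30 and −0.31 in the same order. Igfbp5 had 0.73, 0.82 and −0.83, and Igfbp7 had 0.81, 1.25 and −0.30. Igfbp3 had −4.26, −2.76 and 1.00, and Igfbp6 had −1.89, −0.62 and 0.47. Igf1r and Igfbp2 had the same sign in all 3. The difference between lung and organoid was not tested, since each ratio rests on 1 library per condition. Of genes with the same direction in both lung experiments and a direction in organoid FBs, 46.6% were also opposite.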

How the results depend on the processing

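Of 55 member ratios of 1 or more in size on the log2 scale, 317 values under other settings kept the sign in 316 and stayed past 2-fold in 299. The minimum of 50 CPM changes which genes are counted and not their ratios. Its values among the 317 therefore equal the main ones by construction and add no check. The exception in sign was Igfbp2, under 10 CPM, of MatrixFB-like over LipoFB-like FBs in repetitive PBS, at −0.44 with 1 marker more against 2.73. In organoid FBs the number of members higher was 0 in place of 1 with median centring, equal weights, 1 marker more, thinning to 1000 UMIs and another seed. In organoid epithelium it was 1 in place of 0 without a gate. In single-dose LipoFB-like FBs it was 2 in place of 4 with centring and with thinning to 1000 UMIs. In PATS-like over AEC2-like barcodes 1 member in place of 0 was lower, with 1 marker more in both organoids and with equal weights or another seed in the fibrogenic organoid. At 50 CPM 0 pathway genes were higher in both lung experiments in place of 1. Unthinned, the LipoFB-like share with an Igfbp3 UMI was 71.1% and 12.5% (single dose) and 74.7% and 21.7% (repetitive), the deeper counts raising each. Causes of the other changes were not tested. No paired analysis was possible because each condition had 1 library, and no replicate could be left out. The single-dose libraries had the fewest UMIs and barcodes in all, while barcodes of repetitive bleomycin and fibrogenic organoids had the lowest medians, 2478 and 4289.5 UMIs. Igfbp2 rested on few barcodes.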
